A study of Mus musculus with 6 samples.

Results

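The interleukin-1 (IL-1) family was followed in MC38 tumors through 10 genes: the ligands Il1a, Il1b, Il36g, Il33 and Il18, the receptor antagonist Il1rn, the decoy receptor Il1r2 and the signalling receptors Il1r1, Il1rl1 and Il1rl2. They were taken by gene symbol from a table of 33965 genes, and all 10 were among the 19602 genes that passed the filter on low counts. MC38 is a colon carcinoma cell line of C57BL/6 mice, and the tumors were grown under the skin of C57BL/6 mice (female animals bought at 6 weeks of age, per the study's methods). In 3 tumors the mice had received PBS, the vehicle control, and in the other 3 they had received GB2, a prodrug that combines the STING agonist MSA-2 with artesunate. STING is an innate immune sensor that responds to cyclic dinucleotides. RNA was measured in whole tumors by poly(A)-selected RNA-seq, so fewer cells of a type and less RNA per cell cannot be told apart.

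IL-1 family ligands are cytokines of innate immunity. IL-1α and IL-1β signal through IL1R1, IL-33 through IL1RL1 (ST2), IL-36γ through IL1RL2 and IL-18 through the IL-18 receptor, and all of these receptors pass the signal through MYD88 and IRAK kinases to NF-κB. IL-1β and IL-18 are made as precursors that caspase-1 cleaves in the inflammasome, so their transcript level alone does not give the level of active cytokine. IL1RN occupies IL1R1 without activating it, and IL1R2 binds IL-1 without signalling. In tumors, myeloid cells are a well-known source of IL-1β and IL1RN.

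Total counts ran from 64764405 to 69878156 in the PBS libraries and from 81210553 to 83690056 in the GB2 libraries. PBS tumor 1 stood apart on the first principal component (34.0% of the variance), at -122 against -1.41 to 44.4 for the other 5 tumors. Nothing in the labels says more on how the tumors of a group were handled than that they were separate samples, and p-values measure the spread between these samples. A call needed a Benjamini-Hochberg adjusted p under 0.05 together with a 2-fold difference or more, and by edgeR's quasi-likelihood test 0 of 19602 genes met it. At an unadjusted p under 0.05 it held 1360 genes, and DESeq2 called 385 by the same adjusted limits.

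The family was higher in the GB2 tumors in 9 of its 10 genes, against 48.3% of all genes tested. The exception was Il18. The median log2 fold change of the 10 genes was 1.52, beside -0.0164 over all genes tested. 7 of the 10 (Il1a, Il1b, Il36g, Il1rn, Il1r2, Il1rl1 and Il1rl2) passed the unadjusted limits upward, meaning an unadjusted p under 0.05 and at least a doubling, as did 3.74% of all genes. Without the fold limit 8 of the 10 had an unadjusted p under 0.05, against 6.94% of all genes in either direction, and without the p limit 7 had a log2 fold change of at least 1, against 7.35%. In 8 of the 10, every GB2 tumor was above every PBS tumor, as in 8.61% of all genes, and in Il18 every GB2 tumor was below every PBS tumor, as in 6.68% of all genes. None of the 10 was called by edgeR, with adjusted p from 0.207 to 0.757. DESeq2 called Il1b and Il36g, in the direction in which it called 1.80% of all genes. Without PBS tumor 1, 9 of the 10 were still higher and 7 passed the unadjusted limits.

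**Figure D1:**
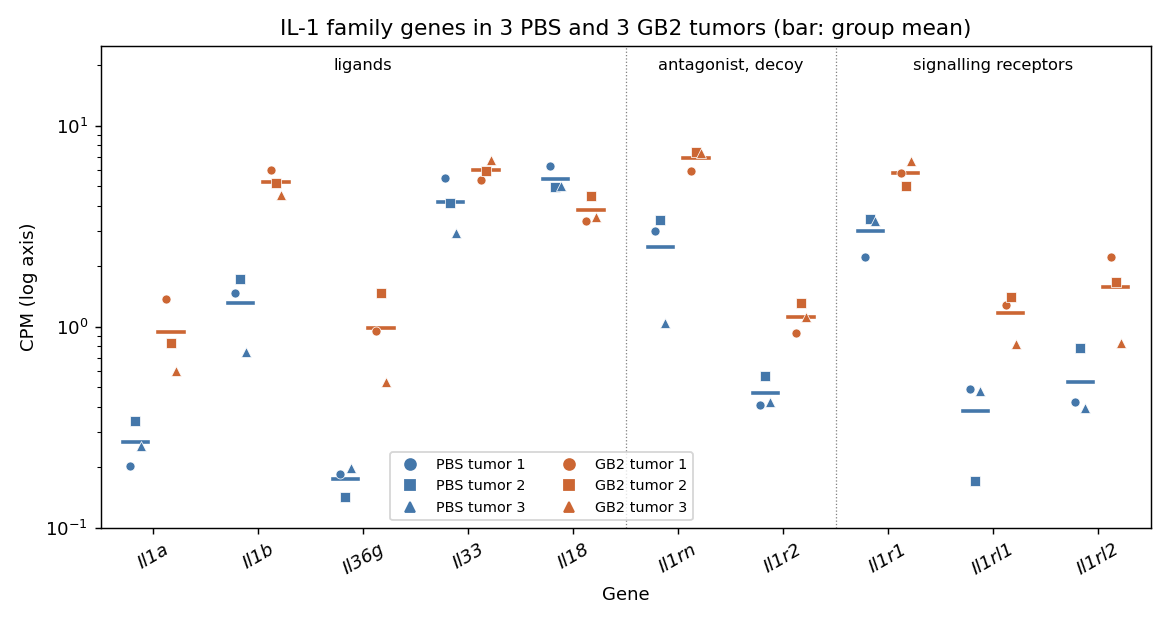
CPM (counts scaled to library size, log axis) of the 10 IL-1 family genes in each tumor, with PBS tumors in blue, GB2 tumors in orange, the symbol giving the tumor number and the bar the mean of 3 tumors. The orange symbols lie above all blue ones in 8 genes, overlap them in Il33 and lie below them in Il18 (3.37 to 4.5 against 4.98 to 6.34 CPM).

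Il1b encodes IL-1β, the secreted ligand of IL1R1. Its level was 1.47, 1.72 and 0.750 CPM in PBS tumors 1, 2 and 3, and 6.05, 5.19 and 4.55 CPM in GB2 tumors 1, 2 and 3. All GB2 tumors lay well above all PBS tumors, and the relative spread was wider among the PBS tumors. The log2 fold change was 2.00 ± 0.38 (SE, 3 tumors a group), a 4.01-fold difference, with an adjusted p of 0.207 in edgeR and 5.7e-05 in DESeq2. Over all alternatives the adjusted p ran from 5.71e-05 to 0.723. The gene lies on chromosome 2 at chr2:129206490-129213059 on the minus strand in the positions of the deposited table. An antisense gene, Il1bos, overlaps it and held at most 24 counts in any tumor, against at least 53 for Il1b.

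Il1a encodes IL-1α, the IL1R1 ligand that is active without caspase-1 cleavage and is released by damaged cells. It gave 0.203, 0.341 and 0.255 CPM in the PBS tumors and 1.38, 0.830 and 0.6 CPM in the GB2 tumors, again without overlap. The PBS values rest on 12, 24 and 18 counts. The difference was 3.50-fold, 1.81 ± 0.51 (SE) on the log2 scale, with an adjusted p of 0.397 in edgeR. At about 4 counts per read pair, the pooled ratio of 59 to 14 read pairs has an exact 95% interval of 1.85 to 6.5, which covers counting error only. The overlapping gene Gm14023 on the other strand was at 37 to 84 counts in the 6 tumors, more than Il1a in every PBS tumor. The counting strand is not given in the sources used here, so reads of this pair may not be fully separated.

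Il36g encodes IL-36γ, an epithelial and myeloid cytokine. It showed the largest fold change of the 10 genes. Its level was 0.186, 0.142 and 0.198 CPM in the PBS tumors and 0.953, 1.48 and 0.529 CPM in the GB2 tumors. The lowest GB2 tumor was clear of the highest PBS tumor, while the GB2 tumors differed widely among themselves. The log2 fold change was 2.48 ± 0.54 (SE), with an adjusted p of 0.262 in edgeR and 0.00738 in DESeq2 (0.00738 to 0.755 over all alternatives). The PBS tumors held only 11, 10 and 14 counts, so the pooled ratio of 5.48 (62 to 9 read pairs) has an exact 95% counting interval of 2.71 to 12.5.

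Il33 encodes IL-33, a nuclear alarmin of stromal and epithelial cells. Its level was 5.5, 4.12 and 2.94 CPM in the PBS tumors and 5.37, 5.95 and 6.78 CPM in the GB2 tumors. The groups overlapped, because PBS tumor 1 was above GB2 tumor 1. The log2 fold change of 0.53 ± 0.30 (SE) had an adjusted p of 0.757 in edgeR and 0.667 in DESeq2 (0.438 to 0.998 over all alternatives).

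Il18 encodes IL-18, an inflammasome-dependent inducer of interferon-γ. It was at 6.34, 4.98 and 5.01 CPM in the PBS tumors and at 3.37, 4.5 and 3.52 CPM in the GB2 tumors. Every GB2 tumor was lower, with a narrow gap between GB2 tumor 2 and PBS tumor 2. The log2 fold change was -0.52 ± 0.26 (SE), or 30.3% lower, with an adjusted p of 0.757 in edgeR, so the difference did not pass the test. It stayed negative without any 1 of the 6 tumors, from -0.66 to -0.38. Bco2, which overlaps Il18 on the other strand, had 153 to 315 counts against 283 to 375 for Il18.

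Il1rn encodes the IL-1 receptor antagonist. Its level was 3.01, 3.39 and 1.05 CPM in the PBS tumors and 5.98, 7.44 and 7.31 CPM in the GB2 tumors. PBS tumor 3 was far below the other PBS tumors, and no PBS tumor reached the GB2 range. The tumors differed 2.78-fold, a log2 fold change of 1.48 ± 0.44 (SE), with an adjusted p of 0.453 in edgeR. Without PBS tumor 3 it was 1.11.

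Il1r2, the decoy receptor, stood at 0.406, 0.568 and 0.424 CPM in the PBS tumors and 0.929, 1.32 and 1.12 CPM in the GB2 tumors. The groups did not overlap, and the tumors within each were close to each other. The difference was 2.40-fold, 1.27 ± 0.39 (SE) on the log2 scale, with an adjusted p of 0.477 in edgeR.

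Il1r1, the signalling receptor for IL-1α and IL-1β, was at 2.23, 3.45 and 3.35 CPM in the PBS tumors and at 5.84, 5.03 and 6.66 CPM in the GB2 tumors. All GB2 tumors exceeded all PBS tumors. The 1.94-fold difference, 0.95 ± 0.29 (SE) on the log2 scale, lay just under the fold limit of 2, and its adjusted p in edgeR was 0.461.

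Il1rl1 encodes ST2, the IL-33 receptor of mast cells, group 2 innate lymphoid cells and regulatory T cells. It was measured at 0.490, 0.17 and 0.481 CPM in the PBS tumors and at 1.29, 1.41 and 0.823 CPM in the GB2 tumors. No values overlapped, although PBS tumor 2 rested on 12 counts. On the log2 scale the difference was 1.62 ± 0.53 (SE), with an adjusted p of 0.531 in edgeR.

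Il1rl2, the IL-36 receptor, was at 0.423, 0.781 and 0.396 CPM in the PBS tumors and at 2.23, 1.68 and 0.835 CPM in the GB2 tumors. The groups did not overlap, but GB2 tumor 3 was only slightly above PBS tumor 2. On the log2 scale the difference was 1.56 ± 0.51 (SE), with an adjusted p of 0.529 in edgeR. Over the 8 genes that DESeq2 did not call, its adjusted p ran from 0.0557 for Il1r1 to 0.667 for Il33, and over all their alternatives the adjusted p ran from 0.0557 to 0.998.

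**Figure D2:**
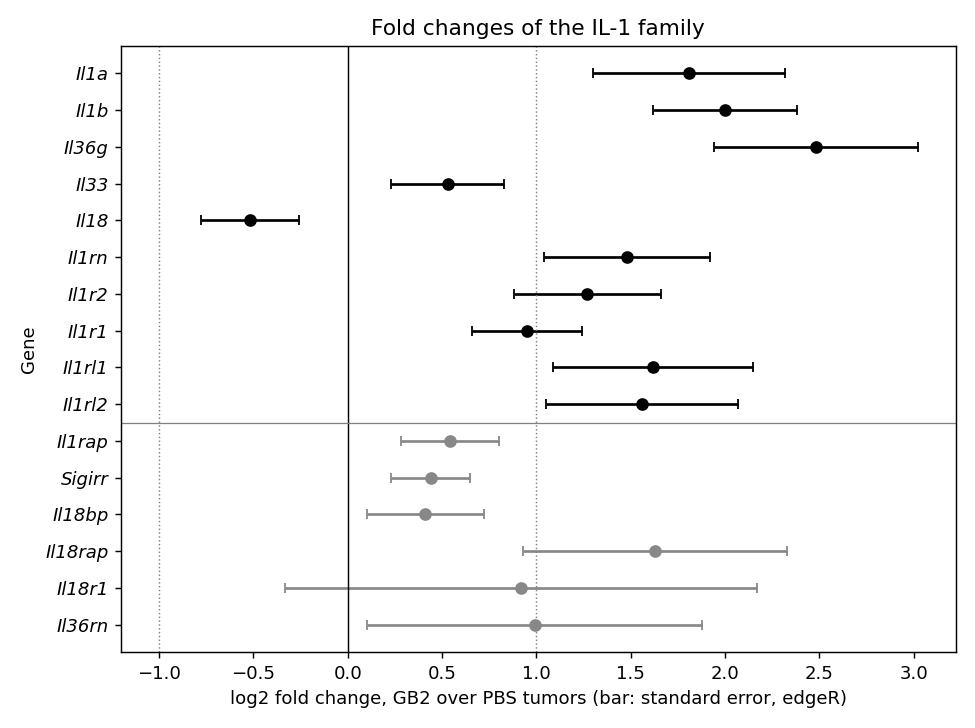
Log2 fold change of GB2 over PBS tumors from edgeR with its standard error, for the 10 genes (black, above the line) and the 6 other IL-1 family genes that could be tested (grey); dotted lines mark a 2-fold difference. Il36g lies farthest right at 2.48, Il18 alone lies left of 0 at -0.52, and the widest error bar is that of Il18r1 (SE 1.25).

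Levels of different genes were compared by FPKM, which divides by transcript length. In the PBS tumors Il18 was the most abundant member at 4.86 ± 0.327 FPKM (SD, n = 3), above the median of 2.66 FPKM over all genes tested. Il33 followed at 1.33 ± 0.320 and Il1b at 0.626 ± 0.245 FPKM. Il1b, Il1r1 (0.444 ± 0.125) and Il1rn (0.407 ± 0.208) overlapped one another in single tumors, as did Il1rn and Il1r2 (0.223 ± 0.0525). Il1a (0.122 ± 0.0370) and Il36g (0.0969 ± 0.0177) overlapped each other, and Il1rl2 (0.0714 ± 0.0307) overlapped Il1a, Il36g and Il1rl1 (0.0483 ± 0.0233).

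In the GB2 tumors Il18 was still the first at 3.59 ± 0.496 FPKM, but Il1b had passed Il33. Il1b was at 2.70 ± 0.402 FPKM, with single tumors from 2.36 to 3.14, just below the lowest Il18 value of 3.24. Il33 was at 2.05 ± 0.251 FPKM and Il1rn at 1.22 ± 0.129 FPKM. Il1r1 (0.900 ± 0.142) stayed below Il1rn in every tumor and overlapped Il36g (0.579 ± 0.267). Il36g, Il1r2 (0.571 ± 0.0858) and Il1a (0.461 ± 0.205) overlapped one another, and Il1rl2 (0.225 ± 0.103) and Il1rl1 (0.165 ± 0.0413) had the lowest means. Il1rl2 in GB2 tumor 1 (0.323) was above the lowest Il36g (0.317) and Il1a (0.296) values.

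The balance of antagonist to agonist was described by the FPKM ratio of Il1rn to Il1b. It was 0.704, 0.682 and 0.482 with PBS and 0.340, 0.493 and 0.552 with GB2, with means of 0.622 ± 0.123 and 0.462 ± 0.110 (SD, n = 3). Antagonist and IL-1β transcripts were both higher with GB2, and the ranges of their ratio overlapped. For Il1rn to Il1a the ratio was 3.49 ± 1.94 in the PBS and 3.06 ± 1.43 in the GB2 tumors. The ratio of decoy to signalling receptor, Il1r2 to Il1r1, was 0.514 ± 0.0916 and 0.652 ± 0.189, also overlapping. Il18bp, which encodes the soluble inhibitor of IL-18, was at 0.244, 0.573 and 0.339 times the Il18 level with PBS. With GB2 it was at 0.651, 0.672 and 0.817 times, and here the groups did not overlap. This ratio was not among those planned and was not tested. A full separation of 3 tumors from 3 has an exact p of 0.1 at best. Il18bp itself overlapped between the groups, from 4.53 to 8.36 CPM with PBS and from 6.42 to 8.87 CPM with GB2.

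The 10 genes did not follow one tumor. Among the PBS tumors, tumor 2 held the highest CPM in 6 of the 10 and tumor 3 in 1. Among the GB2 tumors, tumor 2 held the highest in 5, and tumor 3 held the lowest in 5 (Il1a, Il1b, Il36g, Il1rl1 and Il1rl2) while it was highest for Il33 and Il1r1. Summed over the 10 genes, the level was 20.3, 19.7 and 14.9 CPM with PBS and 33.4, 34.8 and 32.7 CPM with GB2.

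The genes whose profile over the 6 tumors lay closest to a member were taken by the root mean square distance of log2 CPM centred on each gene's mean. Among 19602 genes and only 6 tumors, some genes can lie close to a profile by chance, and a small distance requires a similar fold change. Closeness therefore does not show shared regulation or a shared cell type, and neither was tested. For Il1a these were Pira2-ps1 (0.196), Cxcl3 (0.212) and S100a8 (0.242). For Il1b they were Hivep3 (0.159), ENSMUSG00000120370 (0.195) and Gm20274 (0.224). Il1r2 lay closest to Lcp1 (0.0976), then to Prkd1 and Chst15.

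Il1r1 lay closest to Arap3 (0.116), Neb (0.127) and Mmp2 (0.128). Il1rn lay closest to Slco4a1 (0.169), Pxdc1 and Gm15931, and Il1rl1 to Pcdhga6 (0.121), Atoh8 and Robo3. The closest gene to Il1rl2 was another member, Il1a (0.244), followed by Lama3 and Cxcl3. The genes nearest to Il36g were Tlr12 (0.368), Atoh8 and Kcnj2. For Il33 the nearest were Slc16a10 (0.0865), Gm12418 and Gm9030, and for Il18 Gm28198 (0.0728), Gm8373 and Arfgef3.

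Of the 10 members 8 lie in 3 clusters in the genome, while Il33 on chromosome 19 and Il18 on chromosome 9 lie outside them. In the positions of the deposited table, Il1r2, Il1r1, Il1rl2 and Il1rl1 lie with Il18r1 and Il18rap within 478 kb of chromosome 1 (40113239 to 40590865). All 6 genes were higher in the GB2 tumors, against 48.3% of all genes tested. The 1 tested gene within 200 kb outside the family, Map4k4, had a log2 fold change of -0.06 ± 0.19 (SE). On chromosome 2, Il36g and Il1rn lie within 198 kb (24043173 to 24241506), where the 3 tested neighbours Psd4, Hnmt and Gm13410 had log2 fold changes of 1.17, 1.0 and 0.15. Il1a and Il1b are neighbours within 72 kb, and the 10 tested genes around them had a median of 0.10, from -0.47 to 0.89. None of the 14 neighbours passed the unadjusted limits, which 3.74% of all genes passed upward and 0.918% downward. At such shares so few genes cannot tell the neighbours from other genes. In Psd4, Hnmt and Ckap2l, which lies near Il1a and Il1b, every GB2 tumor was above every PBS tumor, as in 8.61% of all genes.

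Promoters of all 10 genes were found in RefSeq (GRCm38.p6), as 15 windows from 250 bases before to 50 bases after an annotated start. They were searched on both strands for the PU.1 core GAGGAA, the AP-1 site TGANTCA and the NF-κB consensus. PU.1 is a factor of myeloid cells, and AP-1 and NF-κB act downstream of innate immune receptors. The windows of the 3 ligands with the largest fold changes, of the antagonist and of Il18, the gene with the opposite direction, are shown 5′ to 3′ on the gene's strand with matches in capitals.
Il1a, chr2:129309923-129310222, minus strand: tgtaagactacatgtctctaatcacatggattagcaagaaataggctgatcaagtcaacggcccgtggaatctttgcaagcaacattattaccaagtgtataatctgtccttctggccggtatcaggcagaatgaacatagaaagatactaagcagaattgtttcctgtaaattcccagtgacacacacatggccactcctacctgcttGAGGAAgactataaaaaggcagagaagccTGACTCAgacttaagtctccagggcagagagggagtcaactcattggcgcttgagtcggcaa
Il1b, chr2:129371090-129371389, minus strand: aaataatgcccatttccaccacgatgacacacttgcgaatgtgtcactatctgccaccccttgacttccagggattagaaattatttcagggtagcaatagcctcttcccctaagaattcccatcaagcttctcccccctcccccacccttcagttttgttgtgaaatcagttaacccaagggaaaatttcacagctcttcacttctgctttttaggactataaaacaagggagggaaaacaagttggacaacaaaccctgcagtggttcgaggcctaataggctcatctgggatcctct
Il36g, chr2:24186226-24186525, plus strand: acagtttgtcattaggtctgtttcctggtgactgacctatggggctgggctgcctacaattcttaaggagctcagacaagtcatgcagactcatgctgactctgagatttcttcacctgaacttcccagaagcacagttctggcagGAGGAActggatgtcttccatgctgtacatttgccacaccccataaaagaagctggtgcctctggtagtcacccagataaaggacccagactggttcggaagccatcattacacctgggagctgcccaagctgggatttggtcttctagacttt
Il1rn, first of 3 windows, chr2:24336610-24336909, plus strand: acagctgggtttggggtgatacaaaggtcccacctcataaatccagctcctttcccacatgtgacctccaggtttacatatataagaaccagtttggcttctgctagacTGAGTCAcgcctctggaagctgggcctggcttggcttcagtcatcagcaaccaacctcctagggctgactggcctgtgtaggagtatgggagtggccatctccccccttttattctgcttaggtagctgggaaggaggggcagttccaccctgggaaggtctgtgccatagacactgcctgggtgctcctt
Il18, chr9:50554450-50554749, plus strand: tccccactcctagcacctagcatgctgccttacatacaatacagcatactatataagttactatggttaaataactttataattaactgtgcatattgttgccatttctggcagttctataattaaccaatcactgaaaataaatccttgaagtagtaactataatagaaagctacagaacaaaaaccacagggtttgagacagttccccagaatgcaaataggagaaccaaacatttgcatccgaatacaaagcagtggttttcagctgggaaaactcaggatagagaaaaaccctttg

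Il1a held a PU.1 core that ended 36 bases before the start and an AP-1 site, TGACTCA, that ended 6 bases before it. Il36g held a PU.1 core and the first Il1rn window an AP-1 site, TGAGTCA. The Il1b and Il18 windows held none of the 3 motifs, which says only that these letters are not in these 300 bases. In all, 4 of the 15 windows (1 each of Il1a, Il36g, Il33 and Il1rl1) held a PU.1 core, which 28.3% of the 32851 mouse promoters hold. An AP-1 site was in 2 windows, against 7.81% of promoters, and an NF-κB match in 1, the second Il1r1 window, against 4.51%. A match is a description of the letters and does not show a site in use.

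The rest of the family was taken as 11 further genes, of which 6 could be tested. All 6 were higher in the GB2 tumors, against 48.3% of all genes tested, with a median log2 fold change of 0.73. None passed the unadjusted limits. Il1rap, the co-receptor shared by IL1R1, ST2 and the IL-36 receptor, was at 23.1 ± 4.84 CPM with PBS and 33.7 ± 9.65 CPM with GB2 (SD, n = 3), and its log2 fold change was 0.54 ± 0.26 (SE). Per length, Il1rap exceeded Il1r1 by 4.35 ± 0.522 times in the PBS and 3.21 ± 0.551 times in the GB2 tumors. Sigirr, an inhibitory receptor of the family, had a log2 fold change of 0.44 ± 0.21 and Il18bp one of 0.41 ± 0.31.

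The IL-18 receptor chains were scarce. Il18rap was at 0.301 ± 0.260 CPM in the PBS and 0.940 ± 0.0817 CPM in the GB2 tumors (log2 fold change 1.63 ± 0.70). It was the 1 gene of the 6 in which the groups did not overlap, against 8.61% of all genes with every GB2 tumor above. Il18r1 (0.92 ± 1.25) and Il36rn, the IL-36 receptor antagonist (0.99 ± 0.89), had errors as large as or close to their fold changes. The other 5 genes (Il36a, Il36b, Il1f10, Il1rapl1 and Il1rapl2) were under 3 read pairs in every tumor, and Il1rapl1 had no count in any.

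Most genes of the inflammasome and of cytokine processing had small fold changes. Of 22 listed, 18 were tested and 15 were higher in the GB2 tumors, against 48.3% of all genes tested. The median log2 fold change was 0.30. 3 passed the unadjusted limits, all upward, against 3.74% of all genes. They were Ctss, the cysteine protease cathepsin S (1.80 ± 0.33), Mefv, encoding pyrin (1.62 ± 0.46), and Aim2, a sensor of cytosolic DNA (1.28 ± 0.48). Their adjusted p in edgeR was 0.193, 0.42 and 0.653. DESeq2 called 1 gene of the list, Ctss, against 1.80% of all genes called upward. In 5 of the 18 (these 3, Nlrp1b and Nlrp3) every GB2 tumor was above every PBS tumor, against 8.61% of all genes. The 3 lower genes, and Casp1, Nlrp3 and Nlrp1b, were singled out after their values were seen. Pycard, the inflammasome adaptor ASC, had a log2 fold change of -0.58 ± 0.44, Casp8 of -0.21 ± 0.19 and Casp4 of -0.01 ± 0.34. Casp1 was at 1.47 ± 1.03 CPM in the PBS and 1.56 ± 0.215 CPM in the GB2 tumors. Nlrp3 had a log2 fold change of 1.84 ± 1.05, and Nlrp1b had the largest of the list at 2.27 ± 1.10. Both rest on few counts: the PBS tumors held 26, 32 and 0 for Nlrp3 and 12, 16 and 0 for Nlrp1b.

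The signalling chain below the receptors also had mostly small fold changes. All 22 listed genes were tested and 18 were higher, against 48.3% of all genes tested. The median log2 fold change was 0.13. Past the unadjusted limits lay 1 gene, against 3.74% of all genes upward. It was Irak3, which encodes an inhibitory IRAK of myeloid cells, at 1.16 ± 0.39 (SE) with an adjusted p of 0.573 in edgeR. It fell under those limits without PBS tumor 3, without GB2 tumor 2 or without GB2 tumor 3, each of which left 0 genes of the list past them. Nfkbiz, the IκBζ cofactor of NF-κB and singled out after its values were seen, was lower in every GB2 tumor (-0.28 ± 0.17), as were 6.68% of all genes.

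The genes listed as induced by IL-1 were mostly higher. The list leaves out Nfkbia (0.21 ± 0.19), Nfkbiz (-0.28 ± 0.17), Tnfaip3 (0.20 ± 0.31) and Zc3h12a (-0.01 ± 0.45). These could also be counted as targets but were placed in the signalling list. Of 22 listed, 19 were tested and 18 were higher in the GB2 tumors, against 48.3% of all genes tested. The median log2 fold change was 1.44, and 11 passed the unadjusted limits upward, against 3.74% of all genes. In 15 of the 19 every GB2 tumor was above every PBS tumor, against 8.61% of all genes. The 11 genes comprised the metalloproteinases Mmp9 (2.32 ± 0.37), Mmp13 (2.30 ± 0.28) and Mmp3 (1.33 ± 0.52), and the neutrophil chemokines Cxcl2 (1.99 ± 0.50), Cxcl3 (1.99 ± 0.53) and Cxcl5 (1.91 ± 0.29). They further comprised the prostaglandin synthesis genes Ptgs2 (1.39 ± 0.52) and Ptges (1.37 ± 0.45), the adhesion molecule Vcam1 (1.64 ± 0.46), the nitric oxide synthase Nos2 (1.54 ± 0.64) and the cytokine Il6 (1.44 ± 0.52). edgeR called none of them, the smallest adjusted p being 0.186, and DESeq2 called 6, against 1.80% of all genes called upward. The number past the unadjusted limits was 6 without GB2 tumor 1, 7 without PBS tumor 2 and 7 without PBS tumor 3.

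Mmp13, a collagenase, was at 1.49, 1.80 and 1.46 CPM in the PBS tumors and 7.36, 6.54 and 9.56 CPM in the GB2 tumors, with all 3 GB2 tumors far above the PBS range. Cxcl5 was at 1.54, 1.19 and 1.09 CPM in the PBS tumors and 4.39, 5.01 and 4.99 CPM in the GB2 tumors. The 1 lower gene, Lcn2, was singled out after its values were seen: it was at 1.30, 0.979 and 12.8 CPM in the PBS tumors and 1.20, 1.44 and 2.38 CPM in the GB2 tumors, so that PBS tumor 3 alone set the direction. These genes also respond to other cytokines and to Toll-like receptors.

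**Figure D3:**
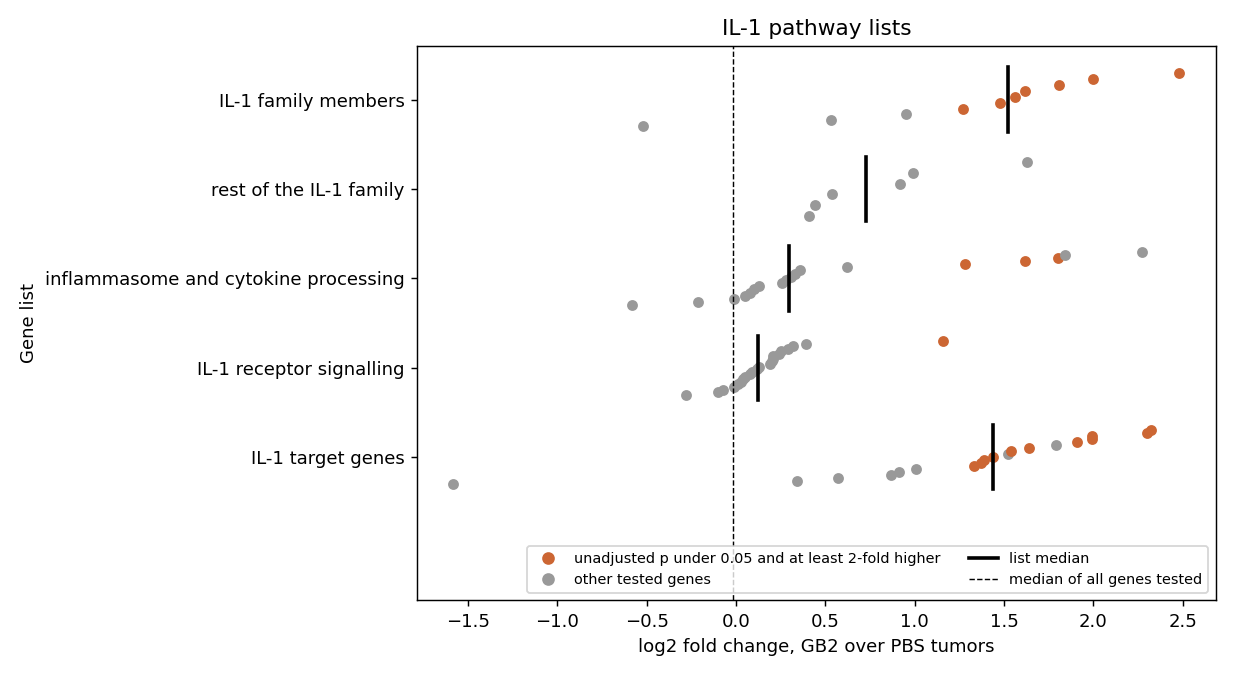
Log2 fold change of GB2 over PBS tumors for every tested gene of the 10-gene family and of 4 further lists, with genes at an unadjusted p under 0.05 and at least 2-fold higher in orange. The black bars (list medians) lie at 1.52 for the family and 1.44 for IL-1 target genes, against 0.13 for IL-1 receptor signalling, and the dashed line is the median of all genes tested (-0.0164).

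Markers of several cell types moved with the family. Of all genes tested, 48.3% were higher in the GB2 tumors and 3.74% were past the unadjusted limits upward. Of 12 macrophage and monocyte markers, all 12 were higher in the GB2 tumors (10 past the unadjusted limits, median log2 fold change 1.87), and their summed level ran from 64.6 to 93.5 CPM in the PBS and from 257 to 362 CPM in the GB2 tumors. All 9 fibroblast markers were higher and past those limits (299 to 531 CPM against 990 to 1370 CPM). The 6 tested of 10 neutrophil markers were all higher, from 2.12 to 4.5 CPM in the PBS to 9.5 to 12.4 CPM in the GB2 tumors, but Ly6g and Mpo had no count in any tumor.

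Of 9 mast cell markers 6 were tested and 5 were higher (11.9 to 13.6 CPM against 16.6 to 19.7 CPM), and of 7 dendritic cell markers 5 were tested and 5 were higher (8.05 to 10.8 CPM against 14.0 to 16.7 CPM). Of 8 endothelial markers 7 were higher (165 to 282 CPM against 312 to 348 CPM). Keratinocyte and skin markers, 9 of 10 tested higher, overlapped between the groups (22.6 to 128 CPM against 96.0 to 163 CPM), as did those of T cells, NK cells, B cells and tumor epithelium. T cell markers were higher in 4 of 10, NK cell markers in 5 of 6, B cell markers in 1 of 3 and the epithelial markers, which check the carcinoma label, in all 5 tested of 7. The epithelial markers summed to only 2.60 to 6.34 CPM in the PBS and 3.41 to 7.85 CPM in the GB2 tumors. How far any of these cell types set the levels of the 10 genes was not tested.

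**Figure D4:**
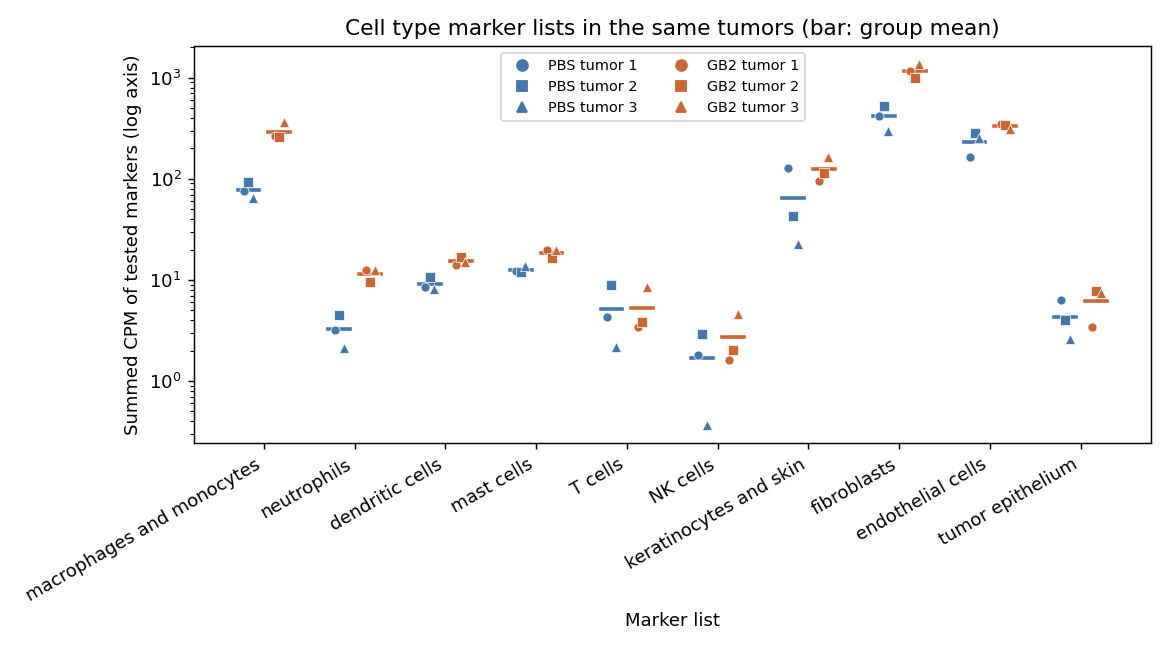
Summed CPM of the tested markers of 10 cell types in each tumor (log axis), with PBS tumors in blue, GB2 tumors in orange and bars for the mean of 3 tumors. Macrophage and monocyte markers (64.6 to 93.5 against 257 to 362 CPM) and fibroblast markers (299 to 531 against 990 to 1370 CPM) do not overlap between the groups, whereas T cell, NK cell, keratinocyte and tumor epithelium markers do.

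The members were also set against the summed markers of macrophages and monocytes, of fibroblasts and of mast cells within each tumor, a measure chosen after the values were seen. Per 1000 CPM of macrophage and monocyte markers, Il1b was at 19.3, 18.4 and 11.6 CPM in the PBS tumors and 23.0, 20.2 and 12.6 CPM in the GB2 tumors, and the groups overlapped. Il1a (3.41 ± 0.673 against 3.38 ± 1.81), Il1rn (30.6 ± 12.6 against 24.0 ± 4.48) and Il36g (2.34 ± 0.779 against 3.61 ± 2.14) overlapped too. Il18 was at 71.3 ± 15.8 against 13.3 ± 3.90, Il33 at 53.8 ± 15.7 against 20.8 ± 2.21, Il1r1 at 39.3 ± 11.6 against 20.1 ± 1.96 and Il1r2 at 5.98 ± 0.635 against 3.92 ± 1.08, each lower in every GB2 tumor (means ± SD, n = 3). Per 1000 CPM of fibroblast markers, Il1r1 was at 5.37, 6.5 and 11.2 CPM in the PBS tumors and 4.95, 5.07 and 4.87 CPM in the GB2 tumors. On that scale Il33 (10.3 ± 2.75 against 5.17 ± 0.749) and Il18 (13.8 ± 3.89 against 3.32 ± 1.06) were, like Il1r1, lower in every GB2 tumor. Il1b was at 3.09 ± 0.530 against 4.57 ± 1.07, with overlap, and the remaining members overlapped too. Per 1000 CPM of mast cell markers, Il1b was at 107 ± 46.1 against 284 ± 46.0, Il1a at 21.3 ± 6.32 against 50.3 ± 19.9, Il36g at 13.9 ± 1.80 against 54.9 ± 31.7 and Il1rn at 203 ± 111 against 375 ± 72.5, each higher in every GB2 tumor. The same held for Il1r1 and Il1rl1, whereas Il1rl2, Il1r2 and Il33 overlapped and Il18 was lower in every GB2 tumor. All of these sums were weighted to a few genes. In every tumor Lyz2 (log2 fold change 2.11) was the largest single part of the macrophage and monocyte sum. Most of the fibroblast sum came from collagen genes in every tumor. These were Col1a1, Col1a2 and Col3a1, with log2 fold changes of 1.45, 1.44 and 1.64. Ratios to sums without these genes were not tested. Most of the mast cell sum came from Gata2 and Kit in every tumor. Gata2 was at 7.0, 5.58 and 6.73 CPM with PBS and lower in every GB2 tumor, at 4.87, 3.41 and 3.86 CPM. Kit was at 3.47, 5.44 and 6.07 CPM with PBS and at 11.2, 8.96 and 9.49 CPM with GB2. Tpsb2, Cpa3, Hdc and Mcpt4 were scarcer, with log2 fold changes of 3.68, 2.37, 1.78 and 1.77, and ratios to them alone were not tested. All these ratios to marker sums are of whole-tumor RNA and do not place a transcript in a cell type. A member that rose less than a marker sum is lower on division by it, and one that rose more is higher. The ratios therefore restate the fold changes of the members and of the sums. The share of all genes that would separate in the same way is not given here.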

How the data were processed

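The authors deposited estimated counts per gene and tumor as integers without scaling. The value 4 (7017 entries) was more frequent than 3 (2984) or 5 (2017), and read pairs were taken as counts divided by 4. The values 1 (5446) and 2 (4996) were frequent too, so this divisor is approximate. The read pairs and counting intervals given above depend on it. The authors also deposited FPKM, which divide by transcript length and library total. The submitters' processing notes name cutadapt 1.9, HISAT2 2.2.1, StringTie 2.1.6, DESeq2, edgeR and mm10, without saying which step used which. Of 31999 gene IDs shared with a GRCm38 annotation 641 (2%) had the same start and end, so gene positions are those of the table and promoters those of GRCm38.p6.

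The count analysis ran edgeR 4.0.16 in R 4.3.3 (filterByExpr with a minimum count of 10, TMM scaling, glmQLFit and glmQLFTest, GB2 against PBS, 3 tumors each, Benjamini-Hochberg adjustment over 19602 genes). The limits (adjusted p under 0.05, at least 2-fold) are those of the study's methods. CPM are counts relative to the TMM-scaled library total. Standard errors come from the test statistic. The biological coefficient of variation was 40.5% (common dispersion 0.164). DESeq2 1.42.0 and limma 3.58.1 served as alternatives. The scripts were tested on simulated data.

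The genes and lists were chosen with earlier results of these data known. The genes named are the 10 members, list genes past the unadjusted limits, every tested gene of the rest of the family and the 3 nearest profiles of each member, with others marked in the text. Of the processing list, Ctsg was not analysed here. Intervals cover counting error only, and PCR copies were not removed by molecular identifiers.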

Additional observations from a re-analysis of the deposited data

How the results depend on the processing

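No member changed sign under any alternative, 9 of the 10 stayed higher in the GB2 tumors under each, and edgeR called 0 genes under each of its settings. With DESeq2, 385 genes and 2 members were called, the 2 being Il1b and Il36g. With limma on log2(FPKM + 1), which compresses the folds of low genes, 95 genes were past the unadjusted limits upward and 34 downward, with 1 member among them, and with limma on log2(FPKM + 0.1) 115 genes were past them downward, against 733 upward and 180 downward in edgeR. Without the filter on low counts 338 genes were past them downward. Leaving out 1 tumor at a time, 6 to 8 members, 503 to 950 genes upward and 123 to 548 genes downward were past the limits. The downward count was 310 without PBS tumor 2 and 548 without PBS tumor 3, and the cause was not tested. The tumor numbers of the labels were not treated as pairs. The correlations of the deviations from the group means were 0.0313, 0.154 and -0.245 for numbers 1, 2 and 3. With 3 tumors a group these cannot settle whether the numbers pair the samples. With the replicate number as a block, 636 genes were past the limits upward and 128 downward, 7 members were past them, and 0 genes were called. Counts in the PBS tumors were at most 55 for Il1a, Il36g, Il1rl1, Il1rl2 and Il1r2, and the biological coefficient of variation was 40.5% with 3 tumors a group; what either did to the calls was not tested.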
